A study of Mus musculus with 10 samples.

Results

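Iron handling in bone marrow erythroid progenitors was examined through 9 of the 24421 genes counted. These 9 genes were chosen by name for their known roles, with earlier results of these data known. They were the transferrin receptor Tfrc, the endosomal ferrireductase Steap3, the divalent metal transporter Slc11a2, the mitochondrial iron importer Slc25a37 (mitoferrin 1), the iron exporter Slc40a1 (ferroportin), the ferritin chains Fth1 and Ftl1, and the iron regulatory proteins Ireb2 and Aco1. RNA-seq was done on R2 cells, erythroid progenitors sorted as CD71+Ter119+ from the marrow of BoyJ recipients 8 weeks after transplant. Recipients were lethally irradiated, were given marrow from Rosa-CreERT2 donors, and all received tamoxifen (1 mg per injection), which activates the Cre. Donor marrow was Ddx41+/+ Trp53+/+ (3 mice, numbered 10, 11 and 12, the controls), Ddx41+/- Trp53+/+ (2 mice, 32 and 34), Ddx41+/+ Trp53+/- (3 mice, 22, 23 and 24) or Ddx41+/- Trp53+/- (2 mice, 46 and 47), with 1 library per mouse. In Ddx41+/- cells a single floxed Ddx41 allele was removed by Cre after tamoxifen, whereas the Trp53 allele was a knockout that the cells carried from the start. CreERT2 is expressed from the Rosa locus and is not restricted to erythroid cells, and the sort used no stated marker of donor origin, so residual recipient cells were not separated. CD71 is the protein product of Tfrc, so the gate itself selected cells that carried the protein of a member gene.

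Developing red cells take up more iron than almost any other cell, since each one fills with hemoglobin. Iron bound to transferrin enters through the transferrin receptor, is reduced in the endosome by STEAP3, leaves it through DMT1 (Slc11a2) and enters mitochondria through mitoferrin 1 for heme synthesis, while ferritin stores the surplus and ferroportin exports it. When iron is scarce, the iron regulatory proteins bind a short RNA hairpin, the iron-responsive element (IRE). Binding in a 5′ UTR blocks translation and binding in the 3′ UTR of Tfrc protects the mRNA from decay. Among the members whose IREs are printed below, the mRNA level therefore reads iron status mainly for Tfrc. The control of ferritin and ferroportin through the IRE acts on translation, which RNA-seq does not measure.

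The IREs are printed because they tie these members into a single regulatory circuit. A search of annotated transcripts (GENCODE M21, GRCm38, sense strand only) for a C, any 5 bases, the loop CAGTGN and 5 more bases, with the 5 bases on either side of the loop able to pair and G-U pairs allowed, found 7 elements in 4 of the 9 members. Lower-case letters are the stem and flanks, and capitals mark the 6-base loop.

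Fth1, 5′ UTR, chr19:9982732-9982760, plus strand: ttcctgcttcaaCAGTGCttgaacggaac

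Ftl1, 5′ UTR, chr7:45459779-45459807, minus strand: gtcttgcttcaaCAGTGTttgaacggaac

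Slc40a1, 5′ UTR, chr1:45925465-45925493, minus strand: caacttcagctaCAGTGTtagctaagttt

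Tfrc, 3′ UTR, chr16:32631219-32631247, plus strand: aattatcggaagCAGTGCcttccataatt

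Tfrc, 3′ UTR, chr16:32631598-32631626, plus strand: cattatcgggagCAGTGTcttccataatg

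Tfrc, 3′ UTR, chr16:32631663-32631691, plus strand: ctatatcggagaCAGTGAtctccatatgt

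Tfrc, 3′ UTR, chr16:32631710-32631738, plus strand: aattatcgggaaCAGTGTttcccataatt

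The loop CAGTGT occurred in 4 of these 7 elements, in Ftl1, Slc40a1 and Tfrc. The whole pattern searched for, with any CAGTGN loop and a pairing stem, was found in the 5′ UTR of 0.142% of the 21901 genes searched. In the 3′ UTR it was found in 0.589% of them. Matches among the other iron genes listed for comparison included the 5′ UTR of Alas2, the first enzyme of heme synthesis in erythroid cells, and the 3′ UTR of Bola3, an iron-sulfur cluster factor. No match was found in Slc11a2, Steap3, Slc25a37, Ireb2 or Aco1, which says only that their annotated UTRs hold no such stretch with a pairing stem. The letters without a pairing stem may still occur there and were not counted. An element of another form would have been missed by this search. A match is a description of the sequence and not evidence of binding in these cells.

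Each library held 7866648 to 20283930 counts, and edgeR's filter on low counts kept 11846 genes, all 9 members among them. Ddx41 was lower in Ddx41+/- than in Ddx41+/+ mice over both Trp53 genotypes (log2 fold change -0.70 ± 0.11 SE, edgeR quasi-likelihood adjusted p = 0.0173, 4 against 6 mice), and Trp53 was lower in Trp53+/- mice (-0.48 ± 0.07 SE, adjusted p = 0.00355, 5 against 5 mice). The erythroid markers Klf1 (859 to 1023 counts per 1000000 counts, CPM), Gata1, Epor, Alas2 and Slc4a1 were high in all 10 libraries. The adult globin genes were not, with at most 21 counts of Hba-a1 and 17 of Hbb-bs in any library and 0 counts of Hbb-bt in all 10, so hemoglobin itself is not represented in these counts. Markers of other marrow cells were also present: summed CPM was 4596 to 7894 over 9 neutrophil markers, 284 to 652 over 14 macrophage markers and 205 to 486 over 8 B cell markers. In these bulk libraries, fewer cells of a type and less RNA per cell cannot be told apart.

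The transferrin receptor, mitoferrin 1 and both ferritin chains ranked among the most abundant mRNAs of R2 cells. Of 11846 tested genes ordered by mean log2 CPM, Slc25a37 stood 8th, Fth1 17th, Tfrc 25th and Ftl1 31st, and the other 5 members stood between 850th and 4375th. Counts grow with transcript length, so levels of different genes were compared as CPM per kilobase of annotated exon over the 10 mice. On that scale Ftl1 was highest (1906 ± 100.0 SD), followed by Fth1 (1110 ± 53.9), Slc25a37 (1033 ± 55.6) and Tfrc (501 ± 43.4). A wide gap separated these from Slc11a2 (37.7 ± 2.13), Steap3 (24.1 ± 2.45) and Slc40a1 (14.9 ± 1.61), and Aco1 (6.61 ± 0.716) and Ireb2 (6.36 ± 0.517) were lowest. Fth1 and Slc25a37 overlapped between mice, as did Aco1 and Ireb2, and no other neighbors in this order did.

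**Figure D1:**
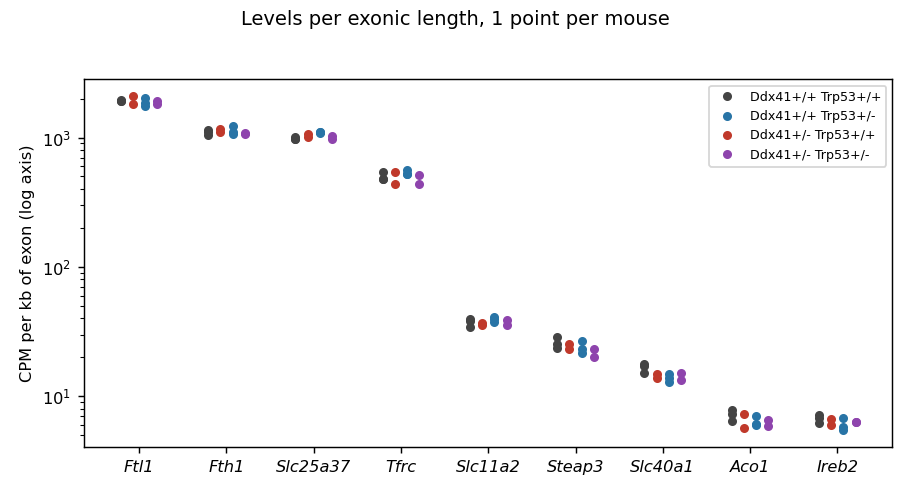
CPM per kilobase of annotated exon (log axis) of the 9 members, with 1 point per mouse colored by genotype. Ferritin, mitoferrin 1 and transferrin receptor lie between 435 and 2093, and the other members lie between 5.47 and 40.9.

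The order depended in part on the length used. With the longest annotated transcript in place of all exons, Slc40a1 (39.9) stood above Steap3 (26.7), Ireb2 (10.4) stood above Aco1 (7.76), and Fth1 (2577) came close to Ftl1 (2638). Ftl1 has near-identical copies: 84.8% of the 75-base stretches of its longest transcript also occur in transcripts of 8 other genes, among them Ftl1-ps1, so its counts are uncertain in level. The shared portion was 7.51% for Slc25a37 and 2.32% for Fth1, and 0 for the other 6 members.

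Tfrc, which brings transferrin-bound iron into the cell, was measured at 2932, 2932 and 3320 CPM in the control mice and at 3332 and 2700 CPM in the Ddx41+/- Trp53+/+ mice. With Trp53+/-, the Ddx41+/+ mice had 3246, 3203 and 3458 CPM and the Ddx41+/- mice 2692 and 3172 CPM. With Trp53+/+ the 2 Ddx41+/- mice lay on either side of all 3 controls, whereas with Trp53+/- both lay below all 3 Ddx41+/+ mice. The log2 fold change for Ddx41 heterozygosity was -0.02 ± 0.09 SE with Trp53+/+ (95% interval -0.22 to 0.17, adjusted p = 0.973) and -0.17 ± 0.09 SE with Trp53+/- (-0.37 to 0.02, adjusted p = 1.00). Neither passed the test, and the difference between these effects did not either (-0.15, 95% interval -0.43 to 0.13, adjusted p = 1.00).

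Steap3, which reduces the iron freed in the endosome, ranged from 116 to 163 CPM over the 10 mice. The genotype means were 148 ± 14.3 (SD, n = 3) in controls, 139 ± 8.22 (n = 2) in Ddx41+/- Trp53+/+, 136 ± 15.5 (n = 3) in Ddx41+/+ Trp53+/- and 124 ± 11.7 (n = 2) in Ddx41+/- Trp53+/- mice. Values overlapped in each tested comparison of 2 genotypes. The Ddx41+/- Trp53+/- mice (116 and 132 CPM) lay below all mice of both Trp53+/+ genotypes (133 to 163 CPM), pairs that were not compared by a test. Slc11a2, which carries the reduced iron out of the endosome, ranged only from 220 to 260 CPM. Its genotype means lay between 228 ± 5.58 (n = 2, Ddx41+/- Trp53+/+) and 249 ± 11.1 (n = 3, Ddx41+/+ Trp53+/-). Values again overlapped in each tested comparison of 2 genotypes. The 2 genotypes just named were not compared by a test, and their values did not overlap (224 and 232 CPM against 238 to 260 CPM). For the untested pairs of Steap3 and Slc11a2, the share of all tested genes that did not overlap was not computed. In the tested Ddx41 comparisons it was 24.9% with Trp53+/+ and 20% with Trp53+/-. Both genes were somewhat lower on average in Ddx41+/- mice over the Trp53 genotypes, by log2 -0.11 ± 0.07 SE for Steap3 (adjusted p = 0.693) and -0.07 ± 0.05 SE for Slc11a2 (adjusted p = 0.730), and neither passed the test.

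Slc25a37, the importer that supplies mitochondria with iron for heme, was the steadiest member between mice of the same genotype. Its SD within genotypes was 0.0378 on the log2 scale, at the 0.388 percentile of all tested genes, and the median over genes of similar level was 0.0733. It was measured at 5822, 5890 and 6082 CPM in controls and at 6385 and 6127 CPM in the Ddx41+/- Trp53+/+ mice, both above every control. In the Trp53+/- mice the order was the opposite, with 6568, 6688 and 6644 CPM in Ddx41+/+ and 5814 and 6202 CPM in Ddx41+/- mice, both below every Ddx41+/+ mouse. The log2 fold change for Ddx41 heterozygosity was 0.08 ± 0.06 SE with Trp53+/+ (adjusted p = 0.745) and -0.14 ± 0.06 SE with Trp53+/- (adjusted p = 1.00). The difference between these effects was -0.22 (95% interval -0.40 to -0.04), with an unadjusted p of 0.0179 and an adjusted p of 0.830 in the edgeR fit, so it did not pass the threshold.

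The Trp53 genotypes were also compared in Ddx41+/+ mice. All 3 Trp53+/- mice had more Slc25a37 than the highest control, by log2 0.16 ± 0.05 SE (95% interval 0.05 to 0.27), and the edgeR adjusted p of 0.237 missed the threshold. Averaged over the Ddx41 genotypes, the Trp53 effect on Slc25a37 was smaller (0.07 ± 0.05 SE, adjusted p = 0.594), with overlapping values.

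**Figure D2:**
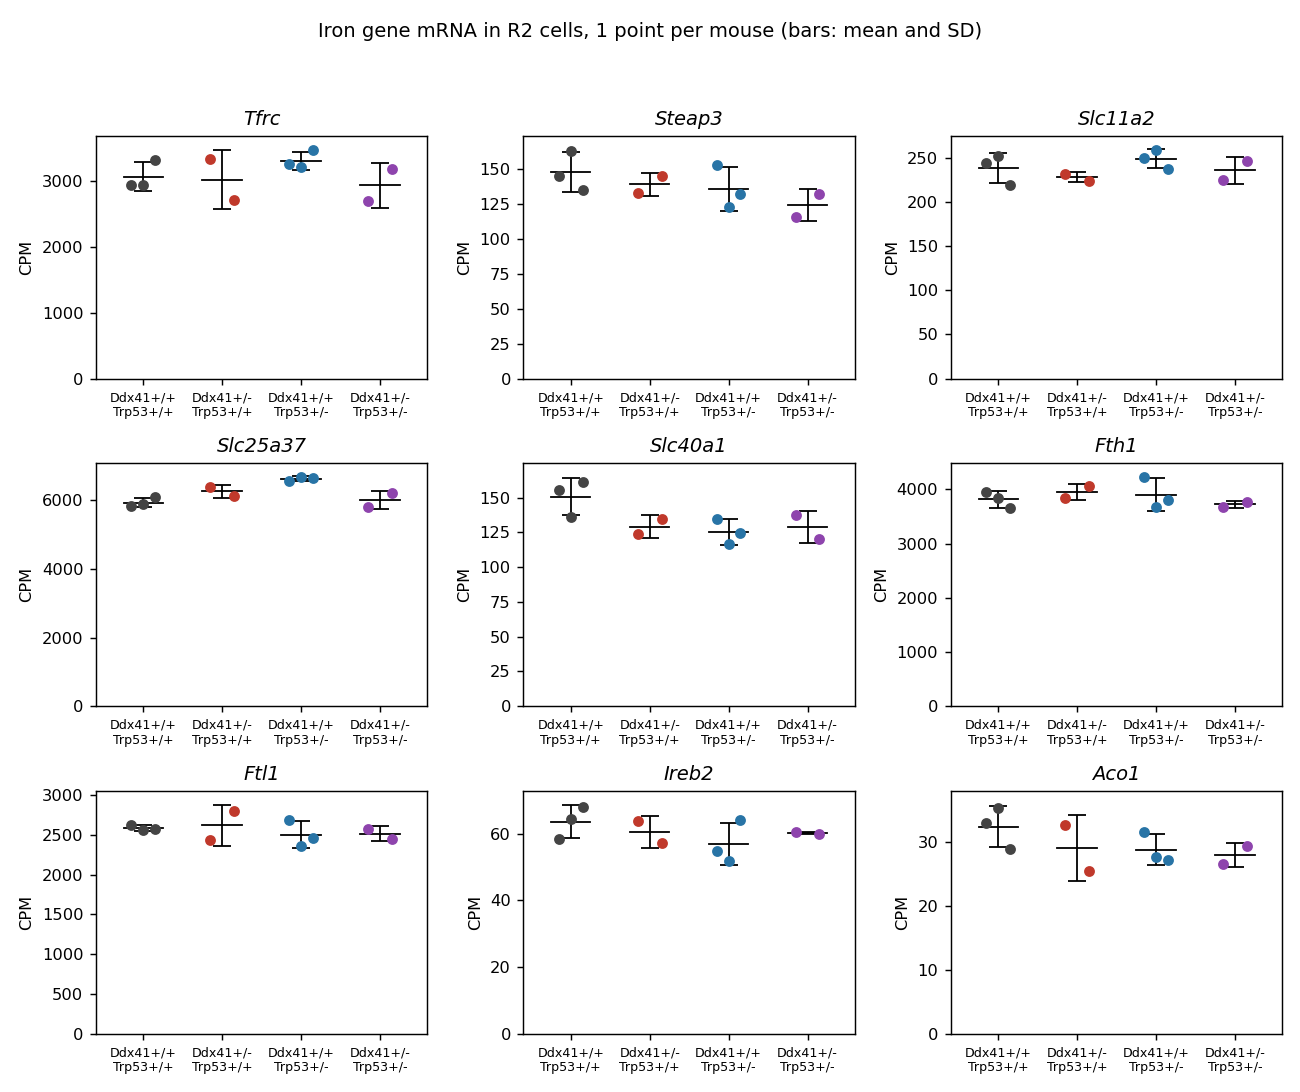
CPM of each member (linear axes from 0), with 1 point per mouse in the 4 genotypes, a horizontal line at the mean and bars of 1 SD (n = 3, 2, 3 and 2). No member differs between genotypes by more than a small part of its level: the highest mouse exceeds the lowest by 1.15-fold for Slc25a37 and by at most 1.41-fold, for Steap3.

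Slc40a1, the only known cellular iron exporter, was the member with the largest fold changes in both comparisons with the controls. It was measured at 155, 136 and 161 CPM in controls, at 124 and 135 CPM in Ddx41+/- Trp53+/+, at 135, 117 and 125 CPM in Ddx41+/+ Trp53+/- and at 137 and 121 CPM in Ddx41+/- Trp53+/- mice. Both kinds of singly heterozygous mice lay below all controls, but the gap to the lowest control, mouse 11, was less than 1 CPM in each case. The log2 fold change was -0.22 ± 0.10 SE for Ddx41 heterozygosity with Trp53+/+ (95% interval -0.43 to -0.02, adjusted p = 0.471) and -0.27 ± 0.09 SE for Trp53 heterozygosity with Ddx41+/+ (-0.45 to -0.08, adjusted p = 0.225). Neither passed the test, and the controls are the same 3 mice in both. With Trp53+/- the Ddx41 genotypes overlapped (0.04 ± 0.10 SE, adjusted p = 1.00).

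Macrophages that recycle red cells also express ferroportin, and their markers moved between the same mice. The summed CPM of 14 macrophage markers was 652, 349 and 588 in the controls, 423 and 541 in Ddx41+/- Trp53+/+, 393, 344 and 284 in Ddx41+/+ Trp53+/- and 564 and 444 in Ddx41+/- Trp53+/- mice. All 14 markers had a negative fold change for Trp53 heterozygosity with Ddx41+/+ (median log2 -0.61, 10 of 14 at an unadjusted p under 0.05, lowest edgeR adjusted p = 0.0638), and mouse 11 was lowest of the controls for both the marker sum and Slc40a1. For Ddx41 with Trp53+/-, 13 of 14 markers had a positive fold change (median log2 0.52, 7 of 14 at an unadjusted p under 0.05), beside the 0.04 of Slc40a1, and for Ddx41 with Trp53+/+ 10 of 14 had a negative one (median -0.16, 1 of 14). The part of these markers in the Slc40a1 values was not tested.

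The ferritin chains assemble into the shell that stores surplus iron. Fth1, the chain with ferroxidase activity, was measured at 3955, 3836 and 3655 CPM in controls and 3840 and 4059 CPM in Ddx41+/- Trp53+/+ mice. With Trp53+/- it stood at 4236, 3666 and 3807 CPM in Ddx41+/+ and at 3680 and 3762 CPM in Ddx41+/- mice. Ftl1, the light chain, stood at 2624, 2557 and 2579 CPM in controls and ranged from 2354 to 2804 CPM in the other genotypes. Values of both overlapped in each tested comparison. The log2 fold changes for Ddx41 over both Trp53 genotypes were -0.0092 ± 0.05 SE for Fth1 (95% interval -0.11 to 0.10, adjusted p = 0.974) and 0.01 ± 0.05 SE for Ftl1 (-0.10 to 0.12, adjusted p = 0.967). Together with that of Slc25a37, these were the narrowest intervals of the members in this comparison. The ratio of Fth1 to Ftl1 counts stayed between 1.42 and 1.58 in all 10 mice, whereas the ratio of Tfrc to Fth1 ranged from 0.665 to 0.908.

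The iron regulatory proteins bind the IREs shown above, and Aco1 also serves as the cytosolic aconitase when it holds an iron-sulfur cluster. Ireb2 ranged from 51.9 to 68.1 CPM and Aco1 from 25.4 to 35.2 CPM, with overlapping values in all comparisons. The control means, 63.6 ± 4.85 (SD, n = 3) for Ireb2 and 32.4 ± 3.20 (n = 3) for Aco1, were the highest of the 4 genotype means, and the lowest were 56.9 ± 6.34 (n = 3, Ddx41+/+ Trp53+/-) and 27.9 ± 1.93 (n = 2, Ddx41+/- Trp53+/-). For Trp53 heterozygosity with Ddx41+/+ the log2 fold changes were -0.16 ± 0.10 SE for Ireb2 (adjusted p = 0.668) and -0.18 ± 0.12 SE for Aco1 (adjusted p = 0.706), and neither passed the test.

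Across the 9 members, none was called (adjusted p under 0.05) in any of the 6 comparisons. In order, the comparisons were the Ddx41 effect with Trp53+/+, the Ddx41 effect with Trp53+/-, the difference between them, the Trp53 effect with Ddx41+/+, and the additive effects of Ddx41 and of Trp53 over both genotypes of the other gene, and edgeR's quasi-likelihood test called 0.625%, 0.0422%, 0.0675%, 0.988%, 0.144% and 0.439% of the 11846 tested genes in them. At an unadjusted p under 0.05 it gave 1, 1, 1, 2, 0 and 1 members, against 9.64%, 3.75%, 5.01%, 9.44%, 8.98% and 11.2% of all tested genes. DESeq2 also called 0 members in each comparison, with the same 6 unadjusted counts, and edgeR's likelihood ratio test called 0 with 1, 0, 1, 2, 0 and 1. In the tested comparisons of 2 genotypes, the mice did not overlap for 2 of the 9 members each: Slc25a37 and Slc40a1 for Ddx41 with Trp53+/+ and for Trp53 with Ddx41+/+, and Tfrc and Slc25a37 for Ddx41 with Trp53+/-. Of all tested genes, 24.9%, 14.1% and 20%, respectively, did not overlap in these comparisons, beside 22.2% of the members in each. In the additive comparisons of Ddx41 and of Trp53, 0 of 9 members and 1.57% and 2.01% of all tested genes did not overlap.

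The size of change that the data allow can be read from the intervals. For Ddx41 heterozygosity over both Trp53 genotypes (4 against 6 mice), the 95% intervals of all 9 members lay between log2 -0.29, the lower bound of Aco1, and 0.17, the upper bound of Ireb2, that is changes of -18.4% to 12.3%. For Trp53 heterozygosity over both Ddx41 genotypes (5 against 5 mice), they lay between -0.33, for Aco1, and 0.19, for Tfrc. The comparisons of 2 genotypes, with 2 or 3 mice a side, were less precise and allowed -0.44 to 0.20 for Ddx41 with Trp53+/+ and -0.37 to 0.31 for Ddx41 with Trp53+/-. The median log2 fold change of the members was -0.07 in the additive Ddx41 comparison, beside 0.00044 for all tested genes, and the median absolute log2 fold change was 0.07 beside 0.11.

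**Figure D3:**
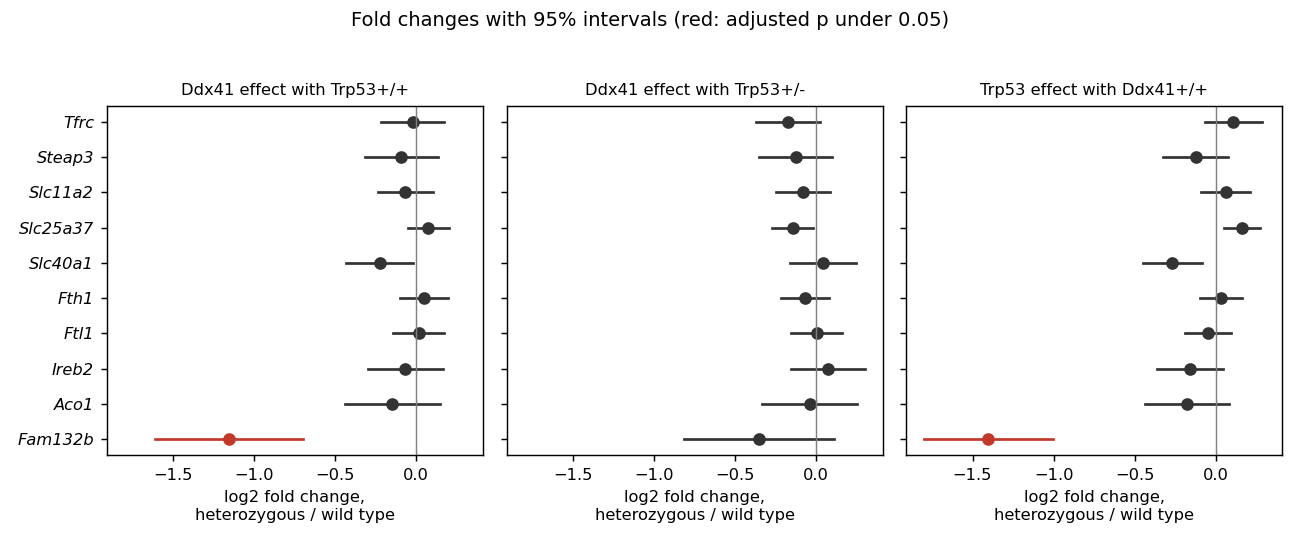
Log2 fold changes (points) and 95% intervals (lines) of the 9 members and of Fam132b in the 3 comparisons of 2 genotypes. The points of the members lie between -0.27 and 0.16, and only Fam132b, at -1.15 and -1.40, passes the test (red).

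The other genes of iron metabolism were taken from lists of 53 gene symbols, chosen with earlier results of these data known. Of these symbols, 52 were in the table and 43 were tested. The symbol not in the table, Erfe, is another name of Fam132b, which the lists also hold. Of 12 tested genes in other steps of uptake, 6 in storage, iron chaperoning and ferritin turnover, 16 in iron-sulfur cluster assembly and 4 further IRE-bearing mRNAs, 0 were called by edgeR's quasi-likelihood test in each comparison. At an unadjusted p under 0.05 these lists together held 4, 3, 2, 4, 4 and 6 of 38 tested genes in the 6 comparisons. Of all tested genes, 9.64%, 3.75%, 5.01%, 9.44%, 8.98% and 11.2% reached it. DESeq2 called 0 of them, and the likelihood ratio test called 1, Trf, in the Trp53 comparison with Ddx41+/+. The most abundant genes of the lists were steady between mice. Alas2 ranged from 7007 to 8440 CPM, the mitochondrial transporter Abcb10, which stabilizes mitoferrin 1, from 1528 to 1737 CPM, and the endocytic adaptor Picalm from 1299 to 1533 CPM. Ncoa4, the receptor that delivers ferritin for degradation, ranged from 515 to 575 CPM, and the iron chaperone Pcbp2 from 394 to 467 CPM. The iron-sulfur cluster factors Isca1 and Glrx5 ranged from 817 to 938 CPM and from 737 to 918 CPM. Lcn2, a siderophore-binding protein of neutrophils, and Hmox1, the heme oxygenase that is abundant in macrophages, were more variable (354 to 623 CPM and 74.9 to 171 CPM).

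Of the 5 tested genes of iron export and systemic control, Fam132b was called, the only iron gene called by the quasi-likelihood test. It encodes erythroferrone, now named Erfe, the hormone through which erythroblasts stimulated by erythropoietin lower hepcidin in the liver and so raise the supply of iron from the gut and from stores. The gene lies at chr1:91366430-91374217 (plus strand, GRCm38). It was measured at 57.2, 38.0 and 60.3 CPM in the controls, 24.5 and 21.8 CPM in Ddx41+/- Trp53+/+, 25.8, 18.9 and 14.8 CPM in Ddx41+/+ Trp53+/- and 16.7 and 14.1 CPM in Ddx41+/- Trp53+/- mice. All 3 controls were above all 7 other mice, and the doubly heterozygous mice overlapped with the Ddx41+/+ Trp53+/- mice. The split of controls against all other mice was not tested, and the share of all tested genes separated by it was not computed. In the tested comparisons with the controls, 24.9% (Ddx41) and 14.1% (Trp53) of all tested genes did not overlap.

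Relative to controls, Fam132b fell by 1.15 ± 0.22 SE on the log2 scale in Ddx41+/- Trp53+/+ mice (edgeR quasi-likelihood adjusted p = 0.0169; 0.219% of tested genes were called lower) and by 1.40 ± 0.19 SE in Ddx41+/+ Trp53+/- mice (adjusted p = 0.00141; 0.101% called lower). Both comparisons rest on the same 3 control mice. The Ddx41 call was lost when mouse 10, 32 or 34 was left out (adjusted p = 0.0577, 0.135 and 0.291) and with 1 surrogate variable in the model (0.0896), and it was kept when mouse 11 or 12 was left out. The log2 fold change itself was -1.33 to -1.03 with each mouse left out and -1.05 with the surrogate variable. The Trp53 call held in all 19 alternatives. Over both Ddx41 genotypes Fam132b fell by 1.10 ± 0.17 SE in Trp53+/- mice (adjusted p = 0.00665, 0.127% called lower). Over both Trp53 genotypes its log2 fold change in Ddx41+/- mice was -0.76 ± 0.18 SE, which did not pass the test (adjusted p = 0.141), with overlapping values. With Trp53+/- the Ddx41 effect was -0.35 ± 0.22 SE (95% interval -0.81 to 0.11, adjusted p = 1.00), and its difference from the effect with Trp53+/+ was 0.80 ± 0.30 SE (unadjusted p = 0.0175, adjusted p = 0.830), so the Ddx41 effects were not shown to differ between the Trp53 genotypes.

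**Figure D4:**
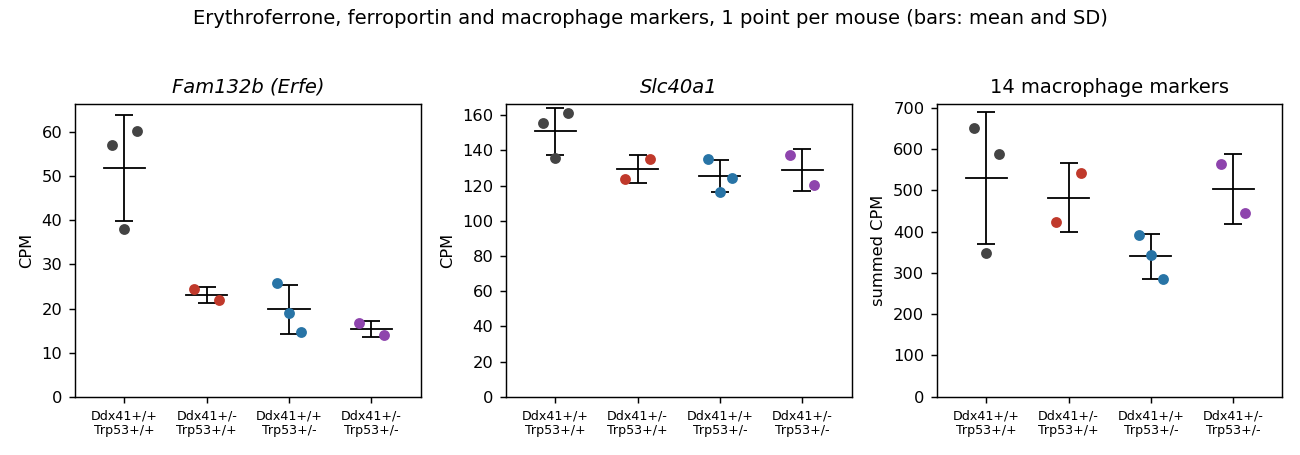
CPM of Fam132b and Slc40a1 and the summed CPM of 14 macrophage markers (linear axes from 0), with 1 point per mouse, a line at the mean and bars of 1 SD. Fam132b lies between 38.0 and 60.3 in controls and between 14.1 and 25.8 elsewhere. The marker sums lie between 349 and 652 in controls and between 284 and 564 elsewhere, and their part in the other values was not tested.

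Several other marker sums differed between the same mice. The 14 macrophage markers, given above, were all lower on average for Trp53 with Ddx41+/+, as Fam132b was, and control mouse 11 was the lowest control for both. In the Ddx41+/- Trp53+/- mice the macrophage marker sums were 564 and 444 (349 to 652 in controls). Fam132b in those mice was 16.7 and 14.1 CPM (38.0 to 60.3 CPM in controls). The B cell markers summed to 205 to 343 CPM in controls and 340 to 486 CPM in the other mice. Of 8 tested, 2 were called higher in Ddx41+/- Trp53+/+ and 5 in Ddx41+/+ Trp53+/- mice. Of all tested genes, 0.625% and 0.988% were called in these comparisons, in either direction. Markers of early erythroid stages (Kit, Myb, Gata2, Myc and Cd34) summed to 29.4 to 49.3 CPM in controls, 46.5 and 49.3 in Ddx41+/- Trp53+/+ and 53.1 to 61.3 in the Trp53+/- mice, and Myb was called higher for Trp53 with Ddx41+/+ (adjusted p = 0.0159). The erythroid markers summed to 38590 to 43860 CPM over all mice. The part of the macrophage, B cell and early-stage markers in the Fam132b result was not tested. Fam132b overlaps the gene Ilkap on the opposite strand, and 10.3% of the 75-base stretches of its transcript are shared with it. Ilkap was not called in any comparison by edgeR's quasi-likelihood test (adjusted p = 0.869 and fold change log2 -0.07 for Trp53 with Ddx41+/+). The part of Ilkap reads in the Fam132b counts was not tested.

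The members did not vary together across mice as a group. Over the 36 pairs of members, Pearson's r of log2 CPM across the 10 mice ranged from -0.647 (Slc25a37 and Slc40a1) to 0.717 (Tfrc and Slc25a37), and 21 pairs had a positive r. Fth1 and Ftl1 had an r of 0.682 and Steap3 and Fth1 of 0.673. These values are a description over mice of 4 genotypes that share libraries and scaling. The tested genes with the most similar pattern over the 10 mice were Chac2 for Tfrc (r = 0.896), Umps for Steap3 (0.988), Bora for Slc11a2 (0.939), March8 for Slc25a37 (0.912), Max for Slc40a1 (0.931), Btf3 for Fth1 (0.939), Exosc10 for Ftl1 (0.939), Rbpj for Ireb2 (0.930) and Mrps22 for Aco1 (0.936). Bola3 stood among the 3 most similar to Ftl1 (0.938). Each is the highest of many genes, so values of this size are given without a test.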

How the data were processed

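R2 cells of 10 mice were profiled by poly(A) RNA-seq, with a stranded kit per the labels and another TruSeq kit per the published methods. Unnormalized whole-number counts of reads, listed by gene symbol, were deposited by the authors. The submitters' processing notes name FastQC 0.11.7, HISAT2 2.0.5, featureCounts 1.5.2 and the build mm10, with no roles or strand setting given. The analysis used edgeR 4.0.16 under R 4.3.3: filter on low counts by genotype (12575 genes removed), TMM scaling, and a quasi-likelihood fit with 1 mean per genotype or an additive model, on all libraries. The study names no count model. P-values are two-sided, and those called adjusted were corrected by the Benjamini-Hochberg method over the 11846 genes, with a threshold of 0.05. CPM use the scaled library sizes, and log2 CPM a prior count of 2. Libraries held 7866648 to 20283930 counts. Counting error is small for the abundant members and larger for genes with fewer counts. Aco1 held 200 to 725 counts per library and Fam132b 172 to 1085. The number of mice also limits the precision, and the p-values weigh each difference against the spread between mice. Replicate libraries differed by more than sampling noise (chi-square per degree of freedom 6.58 to 16.8), so none was counted as a duplicate.

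The members and lists were chosen with earlier results of these data known. Named genes were the members, the iron genes called in a comparison, the 2 most abundant tested genes per list, and the 3 tested genes most correlated with each member. Ilkap, Myb and Trf were chosen after their values were seen. Some genes that this rule names are not reported here. Positions, lengths and IREs are from GENCODE M21 (GRCm38, the same assembly as mm10). Fam132b was matched to Erfe by its RefSeq synonym. Alternatives were DESeq2 1.42.0, its size factors in edgeR, other filters, only the genotypes compared, the likelihood ratio test, a fold limit of 1.5, 1 surrogate variable (sva 3.50.0), hemoglobin genes left out of scaling, and each mouse left out. The procedure was tested on simulated data. Python 3.11.15 and matplotlib 3.10.9 were used for figures.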

Additional observations from a re-analysis of the deposited data

Results flagged for a closer look

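Slc25a37 was singled out because its mice moved in opposite directions with Ddx41 heterozygosity in the Trp53 genotypes. Both Ddx41+/- mice lay above all 3 Ddx41+/+ mice with Trp53+/+, and both lay below all 3 with Trp53+/-. The difference between the effects was -0.22 on the log2 scale (95% interval -0.40 to -0.04, unadjusted p = 0.0179, adjusted p = 0.830 by edgeR's quasi-likelihood test), and it was between -0.26 and -0.17 with each mouse left out in turn. It did not pass the adjusted threshold in any alternative (lowest adjusted p = 0.638).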

How the results depend on the processing

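No paired analysis was possible because the genotypes share no replicate numbers. No member was called under any alternative in the 6 comparisons, but 46 of 999 member values changed sign, in 18 of the 54 combinations of member and comparison. With each mouse left out, the log2 fold changes for Ddx41 with Trp53+/+ ranged from -0.19 to 0.12 (Tfrc), -0.087 to 0.11 (Ftl1), -0.16 to 0.0074 (Ireb2) and -0.36 to 0.012 (Aco1), and those for Ddx41 with Trp53+/- from -0.052 to 0.15 (Slc40a1), -0.037 to 0.061 (Ftl1) and -0.099 to 0.033 (Aco1). The differences between these effects ranged from -0.29 to 0.020 (Tfrc), -0.12 to 0.060 (Steap3), -0.067 to 0.052 (Slc11a2), -0.10 to 0.10 (Ftl1) and -0.044 to 0.32 (Aco1). Fth1 ranged from -0.030 to 0.076 for Trp53 with Ddx41+/+ and from -0.055 to 0.0055 for additive Trp53. Additive Ddx41 ranged from -0.067 to 0.012 (Slc25a37), -0.033 to 0.024 (Fth1), -0.025 to 0.051 (Ftl1) and -0.031 to 0.055 (Ireb2). Fth1 for additive Ddx41 also changed sign with 1 surrogate variable (0.0080) and with at least 10 counts in every library (0.00092), as did Ireb2 for additive Ddx41 (-0.029) and Fth1 for additive Trp53 (0.0025) with 1 surrogate variable. Without a filter on low counts, the other iron genes called numbered 2 (Ddx41 with Trp53+/+), 2 (Ddx41 with Trp53+/-), 3 (difference), 3 (Trp53 with Ddx41+/+), 1 (additive Ddx41) and 3 (additive Trp53), in place of 1, 0, 0, 1, 0 and 1, the added genes being Trf, Hmox1, Lcn2 and Fam132b. In that fit the prior degrees of freedom of the spread became infinite, from 10.1 with the filter, and the calls over all genes rose to 62 to 366 from 5 to 117. The likelihood ratio test gave 2 for Trp53 with Ddx41+/+ and 1 for additive Ddx41, and 1 surrogate variable gave 0 for Ddx41 with Trp53+/+. With each mouse left out, these counts ranged from 0 to 1 for Ddx41 with Trp53+/+, 1 to 2 for Trp53 with Ddx41+/+ and 0 to 1 for additive Ddx41, where leaving out mouse 24 added Fam132b. Calls over all tested genes moved by more than 1.5 times under other tools too: for the 6 comparisons in the order of the text they ranged from 13 to 333, 1 to 62, 7 to 107, 35 to 366, 2 to 251 and 21 to 361, in place of 74, 5, 8, 117, 17 and 52. Leaving out mouse 34 gave the 13, mouse 46 the 1 and mouse 24 the 35. For the additive effects, 1 surrogate variable gave the 2 and the 21, and leaving out mouse 10 or 34 also gave 2. The cause of the other shifts was not tested. DESeq2's size factors and leaving hemoglobin genes out of the scaling moved the median of all genes by less than 0.1.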

Other observations

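Trf, which encodes transferrin, the plasma iron carrier, was measured at 111, 61.2 and 104 CPM in controls, 68.6 and 84.5 CPM in Ddx41+/- Trp53+/+, 61.2, 57.4 and 42.1 CPM in Ddx41+/+ Trp53+/- and 94.2 and 69.8 CPM in Ddx41+/- Trp53+/- mice. For Trp53 heterozygosity with Ddx41+/+ its log2 fold change was -0.78 ± 0.19 SE, which did not pass the test (edgeR quasi-likelihood adjusted p = 0.0649). DESeq2 did not call it either, and Trf was chosen after its values were seen. It passed without control mouse 11 (-1.01, adjusted p = 0.00473) and by the likelihood ratio test (0.00538). It also passed with no filter on low counts (4.22e-13), in the fit where the prior degrees of freedom became infinite. Mouse 11 was also the lowest control for Fam132b, Slc40a1, Hmox1 and the macrophage marker sum.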
